A study of Mus musculus with 3 samples.

Results

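The genes described here encode the mRNA cap-binding protein eIF4E, its relatives and the proteins that hold it back. They are Eif4ebp1, Eif4ebp2 and Eif4ebp3 for the eIF4E-binding proteins, and Eif4e, Eif4e2 and Eif4e3 for the cap-binding proteins. A listed small RNA was assigned to a gene when it matched, exactly and over its whole length, an annotated transcript of that gene on the listed chromosome. Of 2219118 distinct sequences in the list, 2115 were sense to the 6 genes and 8 were antisense, so that the sense sequences made up 0.0953% (95% interval 0.0913 to 0.0995%). The genes were selected on the number of sense sequences per kb of Eif4ebp2, which was already known, and the levels below are therefore a description.

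The study sequenced small RNAs bound to the Tudor-domain protein Tdrd1 or to the Piwi protein Mili in testes of C57BL/6 mice. There were 3 libraries, 1 per group: Mili from testes of Tdrd1 knockout animals labelled 15 dpp, Tdrd1 from adult testes, and Mili from adult wild-type testes. Per the labels, RNA of about 28 to 30 nt was cut from a gel, whereas the listed sequences ran from 18 to 36 nt and most often measured 27 nt. The deposited list pools the libraries and gives each sequence once, without its strand, its library or how often it was read. Knockout and wild type could therefore not be compared, the Tdrd1 gene could not be checked by library, and the depth of each library is unknown. A rare and an abundant small RNA weigh the same. There are no replicates and no tests, and the intervals cover counting error only, although sequences of 1 mRNA are not independent.

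As background, eIF4E holds the cap at the 5′ end of an mRNA and binds the scaffold protein eIF4G, which brings the mRNA to the ribosome. The binding proteins occupy the same surface of eIF4E as eIF4G and so block initiation, until the kinase mTOR phosphorylates them. piRNAs are small RNAs of animal germ cells that are cut from long single-stranded precursors, mRNAs among them, and loaded onto Piwi proteins such as Mili. Most start with U, and their 3′ ends are trimmed.

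The sequences that follow show what was counted. Each is the longest sequence at the 5′ end of its gene with most sequences of 24 to 30 nt, the lengths that can be shown here, and the earliest position in the transcript was taken where ends tied. Coordinates are mm9. For Eif4ebp2 the shortest sequence at the same end is added to show how such a group differs only at its 3′ end, and a sequence of its coding part chosen by the same rule. The list writes T for U. Capitals mark the first base, where U is typical of piRNAs, and the base at position 10, where A is typical of piRNAs made in the amplification cycle.
Eif4ebp2 (chr10:60894338-60894367, minus strand, 3′ untranslated region): TgaacagcgGtctgcacagagcggcttcct
Eif4ebp2, same 5′ end (chr10:60894344-60894367, minus strand): TgaacagcgGtctgcacagagcgg
Eif4ebp2 (chr10:60897705-60897734, minus strand, coding sequence): TtgaagactCcaaagtagaagtgaacaact
Eif4ebp1 (chr8:28385553-28385581, plus strand, coding sequence): TgaagagtcAcaatttgagatggacattt
Eif4e2 (chr1:89116168-89116197, plus strand, coding sequence): TgacagtggAgaccatgatcagaatgaaga
Eif4e (chr3:138216605-138216632, plus strand, coding sequence): TgttaatgtTagagctaaaggtgataag
Eif4e3 (chr6:99586135-99586161, minus strand, coding sequence): TtggaaagaAttgttgttagcgaccat

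All 7 start with U, but 2 of them share a 5′ end of Eif4ebp2. The rule also picks ends with most sequences, which in Eif4ebp2 more often started with U, as given below. For Eif4ebp1, Eif4e2, Eif4e and the coding part of Eif4ebp2 the choice rests on a tie. In Eif4e the ends at nucleotides 604, 1660, 1669 and 4704 had 2 sequences each, and all but the printed 604 lie in the 3′ untranslated region. In Eif4e2 the printed end at 119 tied with 1047, which lies in the 3′ untranslated region. The 5′ ends of Eif4ebp1 at nucleotides 404, 700 and 709 had 3 sequences each over all lengths, and those at 700 and 709 start with C. Within 24 to 30 nt the printed end of Eif4ebp2 had 7 sequences, its printed coding end 6, that of Eif4e2 5, that of Eif4ebp1 3, and those of Eif4e and Eif4e3 2 each. Over all lengths the leading ends were nucleotides 2656 and 4863 in Eif4ebp2 with 9 sequences each, 379 in its coding sequence with 7, and 1521 in the 3′ untranslated region of Eif4e2 with 6, and each of these starts with U.

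Eif4ebp2, whose protein is the main eIF4E-binding protein of the brain, held most of the sequences. It matched 1738 of the 2115 (82.2%, 80.5 to 83.8%), which is 300.5 sense sequences per kb of exon (287 to 315). That placed it 8th among 21951 protein-coding genes, with 99.96% of them lower. Its sequences lay on chromosome 10 between 60891244 and 60915399, on the minus strand. When each 5′ end was counted once it had 821 ends, 141.9 per kb, and ranked 7th. No sequence was antisense to it, which at the limit of a count of 0 allows up to 3.

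The other binding protein genes were far lower in density. Eif4ebp3 had 24 sense sequences, 32.3 per kb of exon (20.7 to 48.0). Eif4ebp1, whose protein is the best studied of the inhibitors and a standard readout of mTOR activity, had 43, 19.6 per kb (14.2 to 26.4). The intervals of Eif4ebp3 and Eif4ebp1 overlap, and both lie entirely below that of Eif4ebp2. All 24 sequences of Eif4ebp3 also matched AC115631.1, a protein-coding gene annotated on the same strand of chromosome 18, so they cannot be given to Eif4ebp3 alone.

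Among the cap-binding proteins, Eif4e2 stood apart from the other two. Its protein binds the cap but not eIF4G and acts as a repressor. It had 276 sense sequences, 36.8 per kb of exon (32.6 to 41.4), between 89110509 and 89137048 of chromosome 1. Eif4e3, the gene of an atypical cap-binding protein, had 12, 4.77 per kb (2.47 to 8.33). Eif4e itself, the gene of the general cap-binding factor, had 22 on 6008 nt of exon, 3.66 per kb (2.29 to 5.54). In order of density the genes ran Eif4ebp2, Eif4e2, Eif4ebp3, Eif4ebp1, Eif4e3 and Eif4e. Eif4e2 and Eif4ebp3 overlap in their intervals, as do Eif4e3 and Eif4e, while Eif4ebp1 lies below Eif4e2 and above Eif4e3 with no overlap. The levels and the overlaps of intervals depend on dividing by the merged exons of all transcripts, which for Eif4e2 measure 7497 nt. Its longest coding transcript has 3473 nt and held 213 of its sequences. For Eif4ebp2 both lengths are 5784 nt. Density by the longest transcript was tried for Eif4ebp2 only. No sense sequence was shared by any pair of the 6 genes.

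All 6 genes had at least 1 sense sequence, as did 71% of protein-coding genes. At least 200 sense sequences were found on Eif4ebp2 and Eif4e2, against 6.05% of protein-coding genes, and at least 100 per kb on Eif4ebp2 alone, against 1.02%. The median over all protein-coding genes was 2.89 per kb, and Eif4e was close to it, with 53.0% of genes lower. Eif4e3 had 56.9% of genes below it, Eif4ebp1 83.1%, Eif4ebp3 90.9% and Eif4e2 92.6%.

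**Figure D1:**
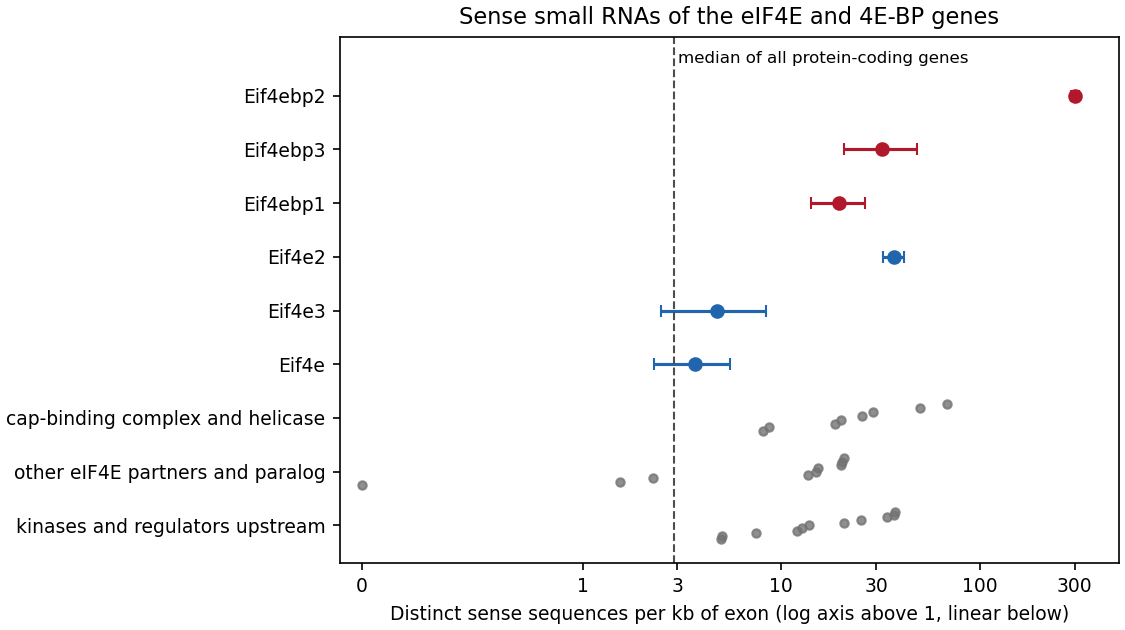
Distinct sense sequences per kb of exon for the 6 genes (red, binding proteins; blue, cap-binding proteins; bars, 95% Poisson intervals) and for 28 other genes of translation initiation and its control (grey, 1 point per gene). Eif4ebp2 stands at 300.5 per kb, to the right of every other point, and Eif4e and Eif4e3 lie near the dashed median of 2.89.

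Other genes of the pathway were lower in density than Eif4ebp2, as were 99.96% of all protein-coding genes. Of 28 further genes of cap binding, helicase function and mTOR signalling, 0 had more per kb than Eif4ebp2, which was chosen for its density. At least 1 sense sequence was found on 27 of them, against 71% of all protein-coding genes. Eif4e2, with 92.6% of all protein-coding genes lower, was exceeded by 4. The median of the 28 was 16.9 per kb, against the 2.89 of all protein-coding genes. Among the cap-binding complex and helicase genes, Eif4b, a cofactor of the helicase eIF4A, was highest at 68.3 per kb and the helicase gene Eif4a1 lowest at 8.08. The poly(A)-binding protein gene Pabpc1 had 50.2 per kb and the scaffold gene Eif4g3 had 8.68. Among other partners of eIF4E, Gigyf1 was highest at 20.7 per kb, and Eif4e1b, the oocyte paralog of eIF4E, was lowest with 0 sequences. Gigyf2, whose protein works with that of Eif4e2, had 15.3 per kb. Among the kinases and their regulators the range ran from 4.99 per kb for Tsc2 to 37.4 for Mlst8, a subunit of both mTOR complexes. Mtor itself had 25.1 per kb.

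The genes nearest to Eif4ebp2 in density, among the 1328 protein-coding genes with 200 or more sense sequences, included none of the 28 translation genes above. Next above it were Cox6a1, a cytochrome oxidase subunit gene, with 317.7 per kb, the testis helicase gene D1Pas1 with 334.1 and the histone gene Hist1h2aa with 638. Next below were the complex I gene Ndufb9 with 296 per kb, Utp3 with 268 and Ppp1r15b, whose protein promotes dephosphorylation of the initiation factor eIF2α, with 259. Only Ppp1r15b and D1Pas1 among these also had more than 1000 sequences, 1450 and 1073. With 1 pooled list there is no pattern across samples to compare.

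Along the Eif4ebp2 mRNA the sequences spanned nearly the whole transcript of 5784 nt. They covered 76.6% of its positions, the first at nucleotide 11 and the last at 5779, and the longest stretch without any was 113 nt (1547 to 1659). The 3′ untranslated region held 1628 sequences, 93.7% (92.4 to 94.8%), but it makes up 91.7% of the transcript. The coding sequence held 5.70% (4.65 to 6.89%) and makes up 6.28%. Per kb the 3′ untranslated region had 307 sequences (292 to 322) and the coding sequence 273 (222 to 332), with overlapping intervals. The short 5′ untranslated region of 115 nt had 11 sequences, 95.7 per kb (47.7 to 171), below both. The high total thus went with a long 3′ untranslated region that was no denser than the coding part beyond counting error.

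The density changed along the transcript. In stretches of 100 nt the number of sequences ran from 0 to 120 with a median of 23. The richest was 5101 to 5200 with 120 sequences, followed by 2501 to 2600 with 95 and 4801 to 4900 with 88. The 10 richest of 58 stretches held 42.5% of the sequences, and all of them lay beyond nucleotide 2200. The 5′-most 2892 nt held 36.8% of the sequences (34.6 to 39.1%) and the remaining 2892 nt held 63.2% (60.9 to 65.4%).

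By exon, the 186 nt of exon 2 of Eif4ebp2 had 446 sequences per kb (355 to 553), the 5338 nt of exon 3 had 306 (292 to 322) and the 260 nt of exon 1 had 73.1 (44.0 to 114). No sequence crossed an exon junction of Eif4ebp2, and across the longest transcripts of the 6 genes 2 did, 1 in Eif4ebp1 and 1 in Eif4e. Every listed interval has the length of its sequence, with no room for an intron.

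Eif4e2 had a different distribution. On its longest coding transcript (3473 nt, 213 sequences) the coding sequence held 39.9% of the sequences (33.3 to 46.8%) and makes up 20.5% of the length. The 3′ untranslated region held 57.7% (50.8 to 64.5%) and makes up 77.1%. Per kb the coding sequence had 119.6 sequences (95.5 to 148) and the 3′ untranslated region 46.0 (38.2 to 54.8). The difference between the sequence share and the length share of the 3′ untranslated region was -19.3 percentage points for Eif4e2, with 6.57% of 1264 rich genes lower, and 1.94 points for Eif4ebp2, with 37.5% lower; the median of these genes was 7.00. Rich genes here are those with 200 or more sense sequences on the longest coding transcript. Within the coding part of Eif4e2, exon 2 had 287 per kb (198 to 403) and exon 6 had 204 (136 to 295), while exon 4 had 1 sequence and exon 7 had 0.

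Another 63 Eif4e2 sequences matched only shorter transcripts. Of these, 47 lay in an alternative last exon, between 89124405 and 89124630 of chromosome 1. In the transcript of 1119 nt this exon is 264 nt long and had 178 sequences per kb (131 to 237). A transcript of 1807 nt extends the same exon to 1056 nt, and 0 sequences began in the added part, since all 47 ended by position 255 of the exon. Of the 47, 40 lay after the stop codon of these transcripts. A further 14 lay in the longer last exon of a transcript of 2869 nt (6.61 per kb of that exon). More than 1 of the annotated 3′ ends of Eif4e2 thus carried small RNAs.

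The sparse genes were covered in patches. Of 43 Eif4ebp1 sequences, 42 lay before a stretch of 1006 nt without any (926 to 1931), so that most of its 3′ untranslated region was empty. The coding sequence of Eif4ebp1 held 18 of them, 50.8 per kb (30.1 to 80.4), and the 3′ untranslated region 25, 16.0 per kb (10.4 to 23.6). Eif4ebp3 had 0 sequences in its first exon and 24 in the other 2. Eif4e had 20 on its longest transcript, 17 of them in the 3′ untranslated region, where they covered 6.94% of positions. Eif4e3 had 5 in the coding sequence and 7 in the 3′ untranslated region.

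**Figure D2:**
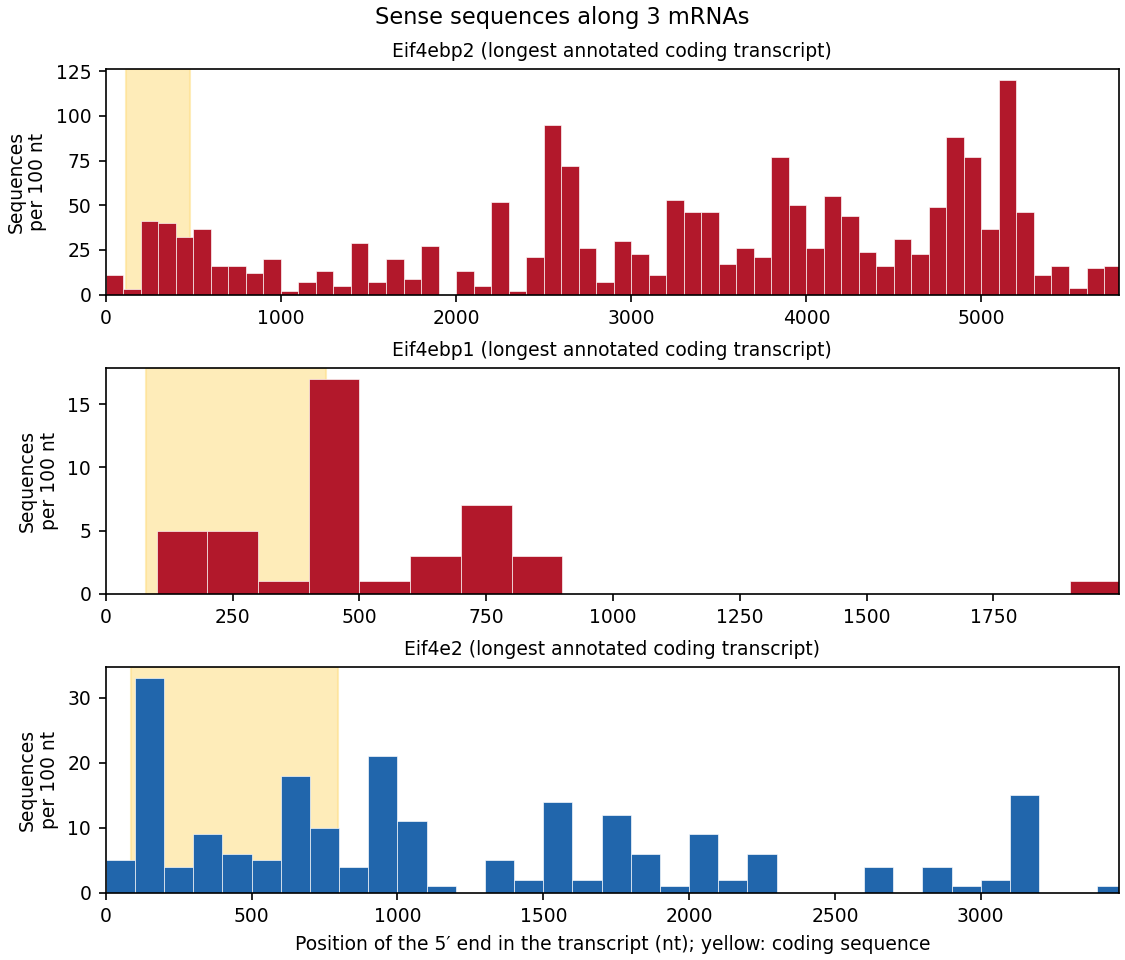
Number of sense sequences whose 5′ end lies in each stretch of 100 nt along the longest coding transcript of Eif4ebp2, Eif4ebp1 and Eif4e2, with the coding sequence in yellow and a separate vertical scale for each gene. Eif4ebp2 reaches 120 sequences in a stretch and has sequences up to its last stretch. Eif4ebp1 is empty from 926 to 1931 nt, and Eif4e2 has its highest bar in the coding sequence.

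The sequences had the size of Mili-bound piRNAs. In Eif4ebp2 the lengths ran from 19 to 34 nt with a mean of 27.02 nt ± 1.83 (SD over 1738 sequences), and 27 nt was most common with 23.4%. Eif4e2 averaged 27.3 nt ± 1.80, and sense sequences of the other protein-coding genes 27.4 nt. The mean of the remaining 4 genes lay between 27 and 27.6 nt. Sequences of 29 to 32 nt accounted for 20.3% (18.4 to 22.3%) in Eif4ebp2, 24.6% (19.7 to 30.2%) in Eif4e2 and 23.3% in other protein-coding genes. Only 4.67% of the 1264 rich genes had a lower mean length than Eif4ebp2.

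Short sequences were also more frequent. Under 24 nt there were 48 Eif4ebp2 sequences, 2.76% (2.04 to 3.65%), against 5 of 276 in Eif4e2 (1.81%, 0.591 to 4.18%) and 0.773% in other protein-coding genes. Of the 48, 44 shared their 5′ end with a longer sequence, and 37 started with U. Neither this share nor the mean length was set against genes of like density. A trait of dense genes can therefore not be told apart here from one of Eif4ebp2.

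**Figure D3:**
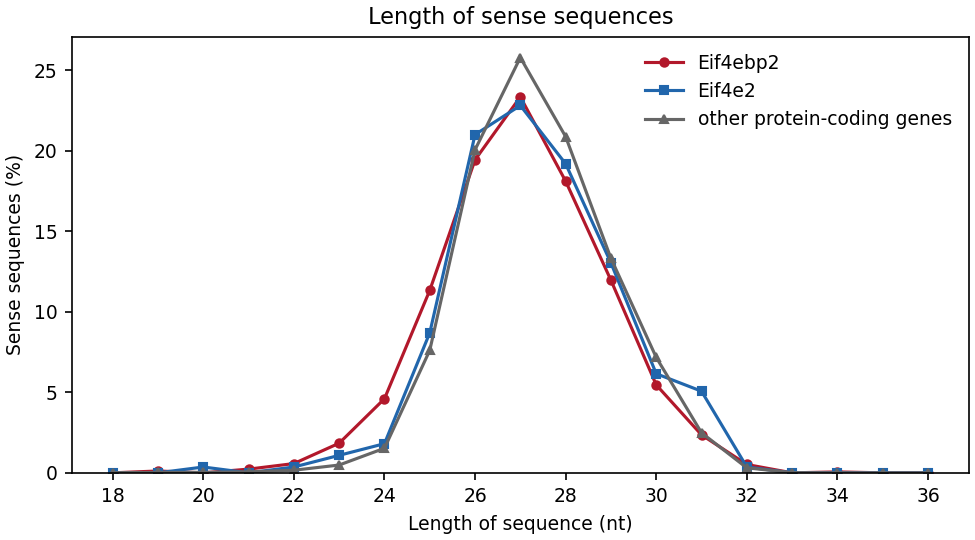
Share of sense sequences at each length (nt) for Eif4ebp2, Eif4e2 and all other protein-coding genes together. The 3 curves peak at 27 nt, and Eif4ebp2 lies above the others from 23 to 25 nt.

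U was the most common first base in all 6 genes, with differences between them. Among sequences of 24 to 32 nt, U started 64.3% in Eif4ebp2 (62.0 to 66.6%), 66.1% in Eif4e2 (60.1 to 71.7%) and 67.7% in other protein-coding genes. It started 16 of 42 in Eif4ebp1 (38.1%, 23.6 to 54.4%), an interval that lies below those of Eif4ebp2 and Eif4e2. In Eif4ebp3 it started 13 of 24, in Eif4e 16 of 21, and in Eif4e3 12 of 12 (100%, 73.5 to 100%). Of the 1264 rich genes 18.6% had a lower share than Eif4ebp2. Within Eif4ebp2 the share was 67.7% in the coding sequence (57.5 to 76.7%) and 64.2% in the 3′ untranslated region (61.7 to 66.5%), although U makes up 18.2% of the bases of the coding sequence and 27.6% of the 3′ untranslated region.

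Seen from the mRNA, U was the base most often used as a start. Of 1532 U positions in Eif4ebp2, 29.3% (27.04 to 31.7%) began a listed sequence, against 12.7% of A (10.9 to 14.7%), 7.42% of C (6.18 to 8.83%) and 7.04% of G (5.78 to 8.49%). Eif4e2 showed the same order at a lower level, with 8.14% of U positions used, 4.12% of A, 2.32% of C and 1.18% of G. A used U position of Eif4ebp2 carried 2.50 sequences on average and a used G position 1.56.

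**Figure D4:**
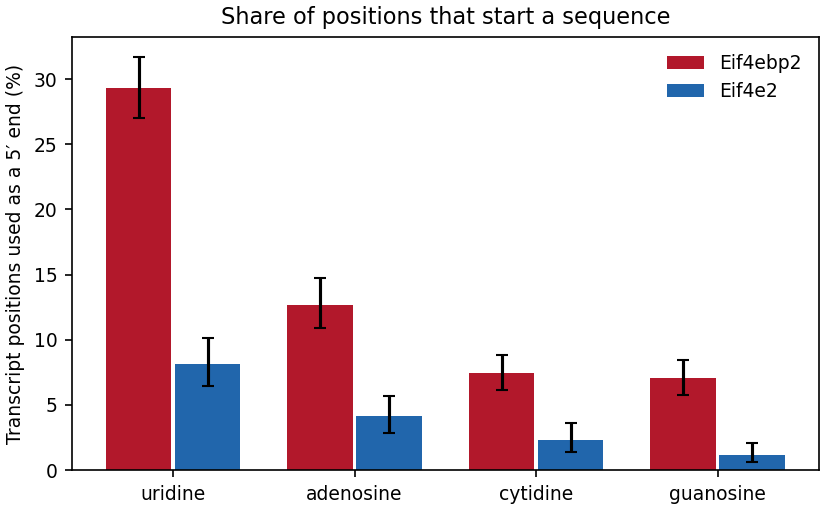
Share of the positions of each base in the longest coding transcript that begin a listed sequence, in Eif4ebp2 and Eif4e2 (bars from 0, with 95% Clopper-Pearson intervals). Uridine is used most in both, 29.3% in Eif4ebp2 and 8.14% in Eif4e2.

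Many 5′ ends of Eif4ebp2 carried several 3′ ends. The 1738 sequences began at 821 positions, 2.12 per 5′ end, and 76 positions had 5 or more sequences. The leading ends, with 9 sequences each, lay in the 3′ untranslated region. Eif4e2 had 1.50 per 5′ end, Eif4ebp1 1.39, Eif4e 1.22, and Eif4ebp3 and Eif4e3 1.09 each. Of the 1264 rich genes, 98.4% had fewer sequences per 5′ end than Eif4ebp2. This measure moves with density (Spearman's rho 0.800 across these genes, which share the same libraries), and among 23 genes with at least 200 sequences per kb, 9 exceeded Eif4ebp2. The share of 5′ ends at U rose with the number of 3′ ends: it was 41.8% (36.997 to 46.7%) for ends with 1 sequence of 24 to 32 nt, 64.2% (58.8 to 69.4%) for ends with 2 to 4, and 89.7% (79.9 to 95.8%) for ends with 5 or more.

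The ends of neighbouring sequences did not adjoin more often than by other distances. In phased production, in which successive cuts leave piRNAs end to end, the base after a piRNA tends to be U and the next piRNA begins there. The base after the 3′ end was U in 27.6% of Eif4ebp2 sequences (25.5 to 29.8%), where U makes up 26.6% of the transcript, and in 26.9% of Eif4e2 sequences (21.02 to 33.5%), where it makes up 26.7%. Of 1053 distinct 3′ ends in Eif4ebp2, 171 had a 5′ end at the next base. At gaps of 1 to 50 nt the number ran from 139 to 215 with a mean of 174, and 27 of the 50 gaps had more. In so densely covered an mRNA, and with trimmed 3′ ends, adjoining ends would be hard to see by this measure.

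**Figure D5:**
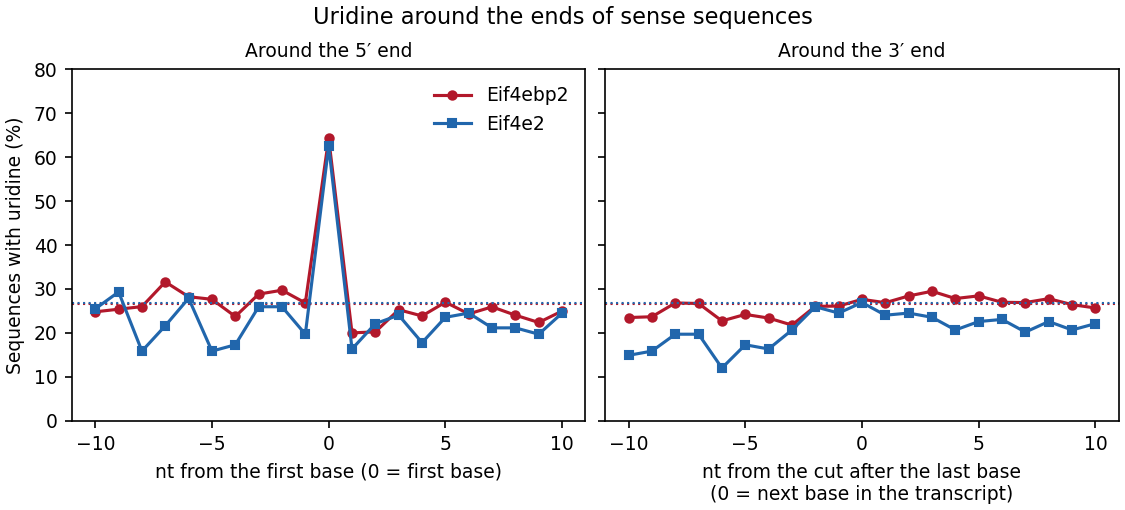
Share of sequences of 24 to 32 nt with uridine at each position from 10 nt before to 10 nt after the 5′ end and the 3′ end, read in the longest coding transcript (dotted, uridine share of the transcript). In Eif4ebp2 and Eif4e2 uridine stands out at the first base (64.3% and 62.5%) and stays near the dotted lines after the 3′ end.

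The marks of the amplification cycle were not detectable on Eif4ebp2. A stood at position 10 in 26.4% of Eif4ebp2 sequences (24.3 to 28.6%), next to 26.4% at position 9 and 27.1% at position 11. In Eif4e2 it stood at position 10 in 33.2% (27.6 to 39.2%), above 28.4% at position 9 and 29.2% at position 11, although both lie within that interval. In other protein-coding genes the share at position 10 was 32.1%, next to 31.7% at position 9 and 32.02% at position 11. Only 9.02% of the rich genes had a lower share than Eif4ebp2, whose transcript holds 20.9% A. Antisense sequences were found on Eif4e (7) and Eif4e2 (1), that is on 2 of 6 genes, where 30% of protein-coding genes had any. Of pairs of sense and antisense sequences, 0 overlapped by 10 nt at their 5′ ends, and 1 overlapped by 9 nt. With 8 antisense sequences such pairs could hardly be found.

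Listed sequences were denser in the exons of these genes than between them. Within the listed span of Eif4ebp2, 26 sequences matched no annotated exon, 1.42 per kb of the remaining length, against 300.5 per kb of exon. Eif4e2 had 22 such sequences (1.16 per kb), Eif4ebp1 16 (1.15 per kb), Eif4e3 11 (0.463 per kb) and Eif4e 4 (0.150 per kb). Their strand is not known. The window of 20 kb that holds most of Eif4ebp2, at 60880001 to 60900000 of chromosome 10, had 1734 sequences and ranked 80th of 62069 windows. Of these, 1719 (99.1%) were sense to Eif4ebp2. The richest windows of the 5 other genes had between 14 and 261 sequences and ranked 1235th or lower.

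The list as a whole carried sequences of germ cell mRNAs, and the labels name testes, Tdrd1 and Mili. All 5 germ cell markers had sense sequences, as did 71% of all protein-coding genes. They ran from 41.4 per kb for the protamine gene Prm2 to 165 for the synaptonemal complex gene Sycp3. Of all protein-coding genes, 93.8% were lower than Prm2 and 99.7% lower than Sycp3, and the median was 2.89 per kb. The 3 Sertoli cell markers had 0 (Rhox5) to 1.93 per kb (Sox9, with 45.6% of genes lower). Of the 3 Leydig cell markers only Cyp11a1 had any, 0.208 per kb. The libraries hold RNA bound to Tdrd1 or Mili, so these values do not measure the cell content of the testes. Binding to these proteins, fewer cells of a type and less RNA per cell cannot be told apart, and none was tested.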

How the data were processed

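The authors deposited a single list for the 3 libraries, in which each distinct sequence has 1 chromosome and 1 position on NCBI mouse build 37, per the file headers (mm9 in the submitters' processing notes). The sources used here do not name the aligner or say how sequences with several positions were treated. Sequences were searched on both strands, exactly and in full, in the transcripts of 55450 genes of GENCODE vM21 (GRCm38) on the listed chromosome, and 58.8% matched. Genes were thus assigned by sequence, and printed coordinates are those of the list, 1-based. The search was tested on simulated sequences. Density is the number of distinct sense sequences divided by the merged exon length in kb. Regions follow the longest coding transcript, by the midpoint of the sequence. Intervals are 95% Clopper-Pearson for shares and exact Poisson for densities (Python 3.11.15, numpy 2.4.6, pandas 2.3.3, scipy 1.17.1).

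The 6 genes and the gene lists were chosen with earlier results of these data known. The text also names the 3 genes next above and next below Eif4ebp2 in density among those with 200 or more sense sequences, the first and last of each list of translation genes, and a few others of those lists for their role. Sequences of Eif4ebp3, on chromosome 18, are not printed. The Eif4ebp2 coding sequence shown and the shorter partner of its leading end, the Eif4e2 last exons and the counts by exon and by stretch were chosen after values were seen.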

Additional observations from a re-analysis of the deposited data

Results flagged for a closer look

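These are sequences outside the sense exon matches that the description rests on, and each number exceeds the 3 that a count of 0 allows. Antisense sequences of Eif4e numbered 7, against 22 sense. Of these, 5 lay between 138189182 and 138189221 of chromosome 3, before the first sense sequence at 138189674, and 2 lay between 138189817 and 138189859. Of the 7, 5 started with U. Sequences without an exon match inside the listed span of a gene numbered 26 for Eif4ebp2, 22 for Eif4e2, 16 for Eif4ebp1, 11 for Eif4e3 and 4 for Eif4e. Their lengths ran from 25 to 32 nt, and 19 of the 26 in Eif4ebp2 and 14 of the 16 in Eif4ebp1 started with U. In both of these genes 13 lay within 2000 nt of the 5′-most sense sequence, that is near the first exon. In Eif4e2 and Eif4e3 0 did. The source of these sequences, and their strand, was not tested.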

How the results depend on the processing

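Of 18 alternative values 15 stayed within the 95% interval of the value reported, some of them by construction, and 3 moved beyond it. All 3 count each 5′ end once: the density of Eif4ebp2 was then 141.9 per kb, its share of the sense sequences of the 6 genes 75.5% and its share starting with U 54.8%. By construction this setting gives ends with many 3′ ends less weight. Limiting lengths or placing sequences by their 5′ end moved none of the values tried beyond its interval. Leaving out sequences that match several genes gave Eif4ebp2 83.2% of the sense sequences of the 6 genes, within the interval. It could not change the other Eif4ebp2 values tried, because 0 of its sequences matched another gene. Dividing by the longest coding transcript could not change its density either, since that transcript and the merged exons both measure 5784 nt. Other genes can change by it, as Eif4e2 has 7497 nt of merged exons and 3473 nt in its longest coding transcript. The rank of Eif4ebp2 by that length is not given here. The share of covered positions in the 3′ untranslated region (92.9%) was added after seeing the data. No paired analysis was possible because the 3 libraries are pooled in 1 list with no library column, and for the same reason no library could be left out. The depth of the libraries is unknown, so that low numbers on Eif4e, Eif4e3 and Eif4ebp3 limit what can be said of them.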

Other observations

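Among the 28 other translation genes, 3 had more than 20 antisense sequences, a count looked at after values were seen. Cyfip1, whose protein binds eIF4E, had 69 antisense and 27 sense sequences. The helicase gene Eif4a2 had 32 antisense and 99 sense, and Tsc2, the gene of an mTOR inhibitor, had 26 antisense and 48 sense. None of the remaining 25 had more than 5. At least 1 antisense sequence was found on 30% of all protein-coding genes, but the share with more than 20 was not determined. The 3 genes can therefore not be set against it. Whether these antisense sequences also match other genes is not given here.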
